A study of Mus musculus with 12 samples.

Results

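Autophagy and mitophagy genes were followed in the livers of mice poisoned with acetaminophen (APAP, paracetamol) and then given human macrophages. The 9 genes were taken from a set list, Sqstm1, Map1lc3a, Map1lc3b, Gabarapl1, Ulk1, Becn1, Bnip3, Pink1 and Wipi1. This list was chosen with earlier results of these data known. Each symbol was matched to 1 Ensembl gene of the count table, so that 9 of the 24187 genes in the table were members. All 9 passed the filter on low counts, which left 22581 genes for testing, and their counts per liver lay between 875 and 24883.

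Whole liver RNA of 12 mice was sequenced after depletion of ribosomal RNA. The labels give 3 control mice that were untreated, 5 mice given 350 mg/kg APAP and then phosphate-buffered saline (vehicle-treated), and 4 mice given 350 mg/kg APAP and then hAAMs (hAAM-treated). hAAMs are human alternatively activated macrophages, grown from blood monocytes and polarised in culture. The labels name the strain as C57BL/6J, while the methods of the study also name C57BL6/JOlaHsd. The methods give an age of 10 to 12 weeks, 12 h of fasting before APAP and cells 16 h after APAP, and neither sex nor fasting is stated for the sequenced mice. For the severe model in which these livers are shown, the study names 500 mg/kg APAP, 1000000 cells, and collection at 32 h by the legend or 36 h by the methods, so dose and time are each stated in 2 ways. The injected cells are of human origin in an immunocompetent mouse, and the reads were aligned to the mouse genome. Nothing in the labels says that the libraries of a group came from separate cages or days, so p-values measure the spread between these 12 samples.

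Autophagy is the route by which a cell encloses its own material in a double membrane and delivers it to the lysosome. The kinase ULK1 starts the process, the lipid kinase complex around Beclin 1 and the WIPI proteins prepare the membrane, and small ubiquitin-like proteins of the ATG8 family are attached to it, where they bind cargo receptors such as p62. Mitophagy is the removal of mitochondria by this route, through receptors on the outer membrane such as BNIP3 or through the kinase PINK1. Hepatocytes rely on both, and APAP harms hepatocytes largely through a reactive metabolite that binds mitochondrial proteins. Most of this control acts on proteins, and the transcript levels given here do not measure autophagic flux.

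Values are deposited counts scaled with edgeR's TMM factors to CPM (counts per 1000000 counts), and differences are log2 fold changes with their standard error (SE) from edgeR's quasi-likelihood test, adjusted over all 22581 genes (FDR, threshold 0.05). Total counts per liver ranged from 47391650 to 74056505. Scaled by library size alone, the median of all genes shifted by 0.36 in vehicle-treated and by 0.32 in hAAM-treated livers against control on the log2 scale, against medians of 0.01 and 0.02 with TMM. The calls over all genes were then 1110 lower and 8637 higher for vehicle, and 781 lower and 6559 higher for hAAM. Changes below are therefore relative to the typical gene. The libraries of hAAM replicate 4 and vehicle replicate 3 stood apart, since their counts differed by 1.19 times counting noise over 15804 genes, while the other 35 pairs of APAP-injured livers differed by 2.61 to 6.93 times. They carry different treatment labels. The labels' protocol names 14 libraries, of which 12 are analysed here. Whether either library of the pair is mislabelled or a second copy was not tested, so they are counted as separate livers in n, and counts without both are given beside those of the members and lists. The library of hAAM replicate 3 also stood apart as the injured liver nearest to the control livers, at 4.4 to 4.66 times counting noise from them, while the other 8 injured livers lay at 5.2 to 9.67 times. It held 42.9 CPM of the pericentral transporter Slc1a2, beside 0.281 to 2.37 CPM in those 8 and 173 to 252 CPM in control livers. Hepatocyte markers summed to between 58200 and 100776 CPM per liver, so markers of the labelled tissue were present.

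Ulk1 and Becn1 were the members lower in vehicle-treated than in control livers at the threshold, and Ulk1 was also lower in hAAM-treated livers. Ulk1 fell to 0.59 times the control level with vehicle and to 0.575 times with hAAM. Becn1 fell to 0.888 times with vehicle. No member rose at the threshold in either comparison with TMM scaling, and none passed between hAAM-treated and vehicle-treated livers. The split depended on the scaling. With library size alone, 0 members were lower and 3 higher with vehicle (Sqstm1, Map1lc3a and Bnip3), where 1110 of all 22581 genes were lower and 8637 higher. With hAAM 1 was then lower (Ulk1) and 0 higher, where 781 of all genes were lower and 6559 higher. With TMM scaling, 2 of 9 members (22.2%) passed for vehicle, where 29.8% of all genes passed and 14.8% passed as lower. For hAAM 1 of 9 members (11.1%) passed, where 20.7% of all genes passed and 9.96% passed as lower. With 9 members, a difference of 1 gene moves these shares by 11.1 percentage points. Without the near-identical pair of libraries 1 member (Ulk1) was lower and 0 were higher in each comparison, where 30% and 19.6% of all genes passed. With each liver left out in turn, the members called ranged from 0 to 3 for vehicle and from 0 to 2 for hAAM. Without control replicate 1, Ulk1 passed in neither comparison. Leaving out hAAM replicate 3, 3 members were lower for vehicle (32% of all genes passed) and 2 for hAAM (24.2%), with Map1lc3b added in both. Between hAAM and vehicle 0 of 9 members passed, as did 0 of 22581 genes (0%) by edgeR. At an unadjusted p under 0.05, 1 member (Sqstm1) and 1133 genes (5.02%) differed there, and DESeq2 called 1 gene, which was not a member. The median log2 fold change of the 9 members was -0.17 for vehicle, -0.17 for hAAM and -0.02 between the treatments. Both APAP groups were compared with the same 3 control livers, so their values are not independent of each other. In bulk tissue, fewer cells of a type and less RNA per cell cannot be told apart.

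**Figure D1:**
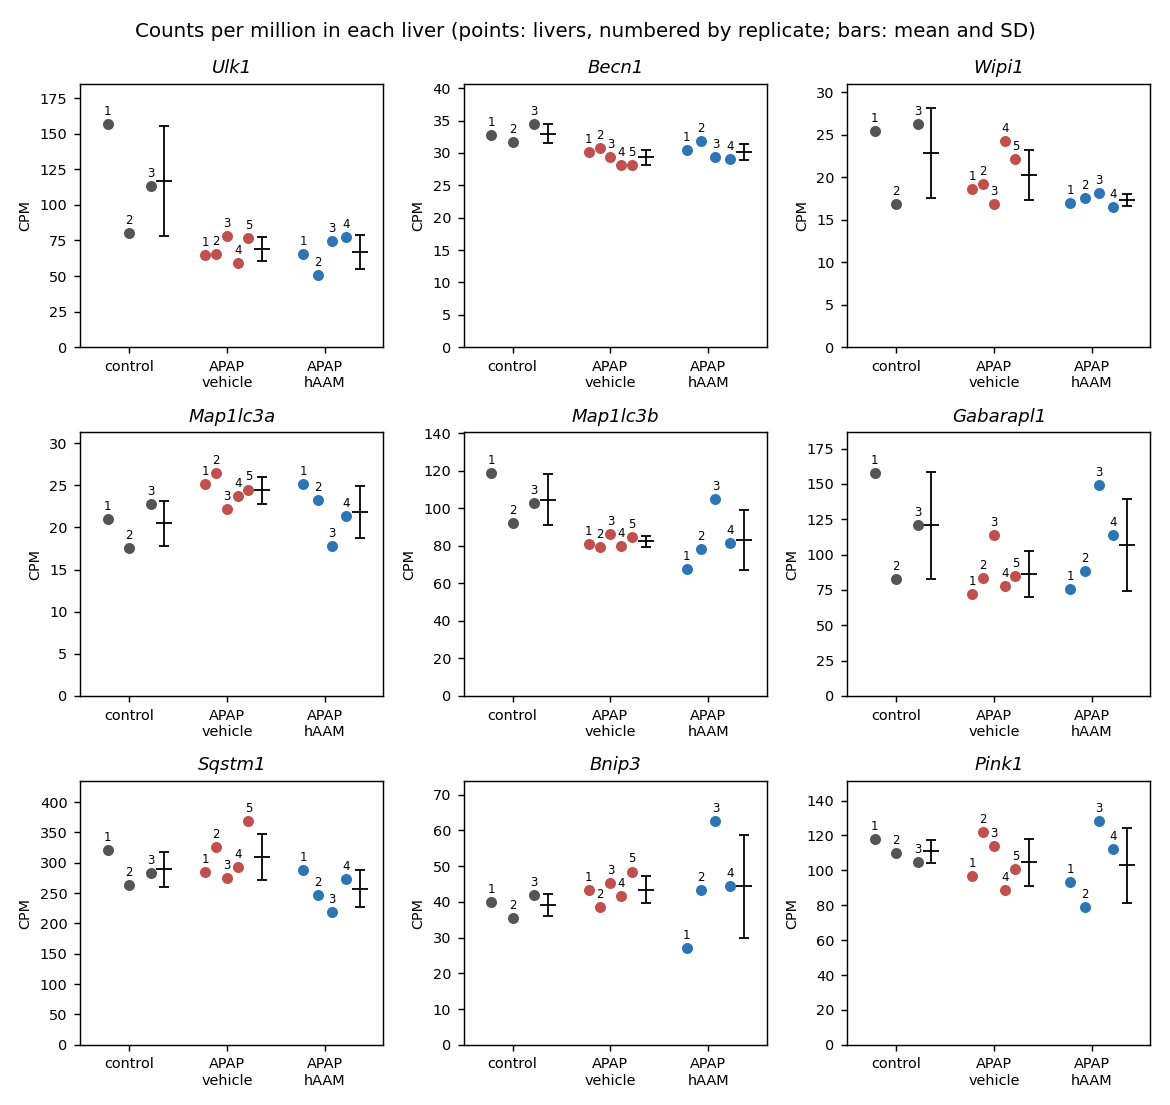
CPM of each member (vertical axes, from 0) in the 12 livers by group, with points numbered by replicate and bars for the mean and SD (n = 3, 5 and 4). Ulk1 lies between 51 and 77.9 in the 9 APAP-injured livers and between 80.1 and 157 in the control livers, and by library size alone it passes as lower with hAAM (FDR 0.0474) but not with vehicle (FDR 0.0664).

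Ulk1 encodes the serine/threonine kinase that starts autophagosome formation when nutrients or energy are short. In control livers it measured 157, 80.1 and 113 CPM. In vehicle-treated livers it measured 64.9, 65.6, 77.9, 58.9 and 76.9 CPM, and in hAAM-treated livers 65.6, 51, 74.4 and 77.1 CPM. The lowest control liver lay just above the highest injured liver, so the groups did not overlap, and control replicate 1 was the highest of all. It changed by a log2 fold change of -0.76 (SE 0.19, FDR 0.0113) for vehicle and -0.80 (SE 0.20, FDR 0.017) for hAAM. Between hAAM and vehicle it was -0.04, with a 95% interval from -0.43 to 0.35. Control replicate 1 decided the call. Without it the values were -0.48 (FDR 0.0693) and -0.52 (FDR 0.0785), whereas each of the other 11 livers could be left out with the call kept in both comparisons. Scaled by library size alone the difference was -0.42 (FDR 0.0664) for vehicle and -0.51 (FDR 0.0474) for hAAM. Without the near-identical pair of libraries it was -0.80 (FDR 0.0166) and -0.87 (FDR 0.0245). Fitted on hAAM and control livers only, the hAAM value was -0.79 (FDR 0.0578). Ulk1 lies at chr5:110784488-110810097 on the minus strand of GRCm38 (ENSMUSG00000029512), and its exons overlap no other annotated gene.

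Becn1 encodes Beclin 1, the scaffold of the class III phosphatidylinositol 3-kinase complex. Control livers held 32.8, 31.7 and 34.5 CPM. Vehicle-treated livers held 30.2, 30.8, 29.3, 28.1 and 28.2 CPM, all under the control livers, while hAAM-treated livers held 30.4, 31.8, 29.3 and 29 CPM and overlapped them. The difference was small but the replicates were tight, with a coefficient of variation of 4.22% in control and 4.09% in vehicle-treated livers. Its difference from control was -0.17 on the log2 scale (SE 0.06, FDR 0.0483) for vehicle and -0.13 (SE 0.06, FDR 0.159) for hAAM, and 0.04 (95% interval -0.08 to 0.16) between the treatments. This call was at the edge of the threshold. It was kept in 2 of the 12 fits that each left out 1 liver, with FDR values from 0.0471 to 0.181 and log2 fold changes from -0.20 to -0.14. Without the near-identical pair the value was -0.16 (FDR 0.0952). The sign turned by library size alone, to 0.17 for vehicle (FDR 0.132) and 0.18 for hAAM (FDR 0.165). Becn1 lies at chr11:101285952-101302286 on the minus strand (ENSMUSG00000035086), and 3104 of its 7065 exon bases are shared with Cntd1 on the other strand. Cntd1 measured 0.237 to 0.467 CPM in the 12 livers.

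Wipi1 encodes a WD-repeat protein that binds the phosphatidylinositol 3-phosphate made by that complex on the forming membrane. It measured 25.5, 16.8 and 26.3 CPM in control livers. Values of 18.6, 19.2, 16.9, 24.3 and 22.2 CPM were found with vehicle, and of 17, 17.6, 18.2 and 16.5 CPM with hAAM. Control replicate 2 sat among the injured livers, so both APAP groups overlapped the control group. The log2 fold change was -0.17 (SE 0.15, FDR 0.399) for vehicle, -0.40 (SE 0.15, FDR 0.0823) for hAAM and -0.23 (SE 0.14, FDR 0.969) between the treatments. Without control replicate 2 the hAAM value became -0.58 (FDR 0.0141). That was the 1 fit of 12 with a liver left out in which it passed, with values up to -0.29 and FDR up to 0.285. Without the near-identical pair of libraries the hAAM value was -0.38 (FDR 0.134). The 4 hAAM-treated livers varied least, with a coefficient of variation of 4.4% against 23% in control livers. The vehicle value turned to 0.18 (FDR 0.38) by library size alone. Wipi1 lies at chr11:109573331-109611967 on the minus strand (ENSMUSG00000041895).

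**Figure D2:**
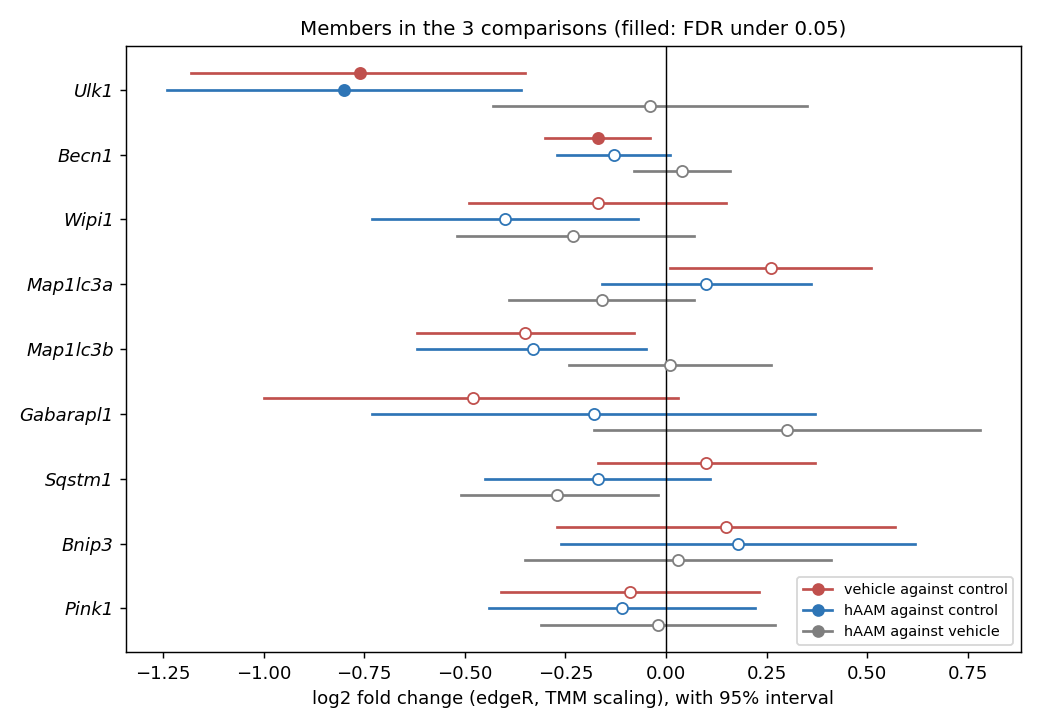
log2 fold change of each member (points) with its 95% interval (lines) in 3 comparisons, under TMM scaling, filled where the FDR was under 0.05. The filled points are Ulk1 in both comparisons with control and Becn1 for vehicle, and the Becn1 values change sign under scaling by library size alone.

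Map1lc3a, Map1lc3b and Gabarapl1 belong to the ATG8 family, the proteins that are joined to a lipid of the autophagosome membrane and that recruit cargo receptors. They did not share a direction. Map1lc3b was lower in the vehicle-treated livers by a margin just short of the threshold, Map1lc3a tended the other way without passing, and Gabarapl1 varied most between livers of the 3 genes. Map1lc3b measured 119, 92 and 103 CPM in control livers. With vehicle it measured 81.1, 79.5, 86.3, 80.1 and 84.6 CPM, and with hAAM 67.4, 78.3, 105 and 81.7 CPM. The vehicle-treated livers formed a narrow band below the control livers, while hAAM replicate 3 lay within the control range. The log2 fold change was -0.35 (SE 0.12, FDR 0.0518) for vehicle and -0.33 (SE 0.13, FDR 0.0886) for hAAM, with 0.01 (95% interval -0.24 to 0.26) between the treatments. DESeq2 put the vehicle value at -0.36 (FDR 0.0391), and a fit of vehicle and control livers only put it at -0.35 (FDR 0.0165). With each liver left out it passed in 3 of 12 fits, with FDR up to 0.217. Without the near-identical pair of libraries it did not pass, at -0.36 (FDR 0.0845) for vehicle and -0.32 (FDR 0.168) for hAAM. Without hAAM replicate 3 the hAAM value was -0.47 (FDR 0.00931), the 1 fit of 12 with a liver left out in which it passed, with FDR up to 0.296. By library size alone Map1lc3b stood at 0 for vehicle (FDR 0.993) and -0.04 for hAAM (FDR 0.778), so its lower level is relative to the typical gene. With non-overlap as the criterion, 3 of 9 members (Ulk1, Becn1 and Map1lc3b) separated vehicle-treated from control livers, where 34.8% of all genes did. For hAAM 1 of 9 (Ulk1) did, where 28.5% of all genes did. Without the near-identical pair Map1lc3a also separated for vehicle, making 4 of 9 (42.2% of all genes), and 1 of 9 separated for hAAM (34.2%). Between hAAM and vehicle 0 of 9 separated with all libraries and 1 of 9 without the pair (8.24% of all genes), where 0 of 9 passed the test. Map1lc3b lies at chr8:121590361-121598760 on the plus strand (ENSMUSG00000031812) and shares 58 exon bases with Zcchc14.

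Map1lc3a measured 21, 17.6 and 22.8 CPM in control livers. The vehicle-treated livers gave 25.1, 26.5, 22.2, 23.7 and 24.5 CPM, and the hAAM-treated livers 25.1, 23.2, 17.8 and 21.3 CPM. Vehicle replicate 3 was the vehicle-treated liver inside the control range, and hAAM replicate 3 was close to the lowest control liver. On the log2 scale the difference was 0.26 (SE 0.11, FDR 0.107) for vehicle, 0.10 (SE 0.12, FDR 0.594) for hAAM and -0.16 (SE 0.10, FDR 0.969) between them. By library size alone the vehicle value was 0.61 (FDR 0.00699), against the 0.36 of the median gene. Map1lc3a lies at chr2:155276297-155278073 on the plus strand (ENSMUSG00000027602).

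Gabarapl1 measured 158, 82.9 and 121 CPM in control livers. It measured 71.9, 83.5, 114, 77.7 and 84.7 CPM with vehicle and 75.4, 88.1, 149 and 114 CPM with hAAM. All 3 groups overlapped, and within each group the highest liver was 1.58 to 1.98 times the lowest. Differences on the log2 scale were -0.48 (SE 0.24, FDR 0.143) for vehicle, -0.18 (SE 0.25, FDR 0.647) for hAAM and 0.30 (95% interval -0.18 to 0.78) between the treatments. Without control replicate 1 the hAAM value became 0.07, and by library size alone it became 0.10. Among the injured livers the highest were hAAM replicate 3, hAAM replicate 4 and vehicle replicate 3, and the last 2 of these are the near-identical pair. The same 3 livers held the most Cyp2e1, the pericentral enzyme that activates APAP, with 2464, 1293 and 1300 CPM, while the other 6 injured livers held 239 to 892 CPM. Glul, another pericentral marker, did not share this order, with 75.4 CPM in hAAM replicate 3, the highest of the injured livers, but 39.9 and 42.5 CPM in hAAM replicate 4 and vehicle replicate 3, which were among the 3 lowest. The part of pericentral cells in the Gabarapl1 values was not tested. Gabarapl1 lies at chr6:129533160-129542346 on the plus strand (ENSMUSG00000030161), and 570 of its exon bases are shared with 1700101I11Rik on the other strand.

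Sqstm1 encodes p62, the receptor that links ubiquitinated cargo to ATG8 proteins and that also binds KEAP1, the inhibitor of NRF2. Control livers measured 321, 264 and 283 CPM. Vehicle-treated livers measured 284, 326, 275, 293 and 368 CPM, and hAAM-treated livers 288, 247, 219 and 274 CPM. Vehicle replicate 5 was the highest and hAAM replicate 3 the lowest, and the groups overlapped. Its log2 fold change was 0.10 (SE 0.12, FDR 0.593) for vehicle and -0.17 (SE 0.13, FDR 0.374) for hAAM. Between hAAM and vehicle it was -0.27 (95% interval -0.51 to -0.02). Its unadjusted p of 0.0377 did not survive adjustment (FDR 0.966), and 1133 genes passed at that level. By library size alone the vehicle value was 0.44 (FDR 0.0281) and the hAAM value turned to 0.14 (FDR 0.502). Sqstm1 lies at chr11:50199366-50210827 on the minus strand (ENSMUSG00000015837). It shares 580 exon bases with Mrnip, which measured 0.815 to 1.94 CPM.

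Bnip3 and Pink1 stand for the main routes into mitophagy, and neither changed at the threshold in any comparison. Bnip3 encodes an outer-membrane receptor that binds ATG8 proteins directly and is a known target of hypoxia-inducible factor. It measured 39.9, 35.6 and 41.8 CPM in control livers. Vehicle-treated livers held 43.3, 38.5, 45.2, 41.6 and 48.5 CPM, and hAAM-treated livers 27.2, 43.2, 62.5 and 44.4 CPM. The hAAM group held both the lowest and the highest of the 12 values, with a coefficient of variation of 32.5% against 8.69% with vehicle. Differences were 0.15 (SE 0.19, FDR 0.587) for vehicle, 0.18 (SE 0.20, FDR 0.559) for hAAM and 0.03 (SE 0.18, FDR 1) between them on the log2 scale. Without hAAM replicate 3 the hAAM value turned to -0.03. Under scaling by library size alone the vehicle value was 0.50 (FDR 0.0339). Bnip3 lies at chr7:138890836-138909519 on the minus strand (ENSMUSG00000078566).

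Pink1 encodes the kinase that builds up on damaged mitochondria and activates the ubiquitin ligase parkin. It measured 118, 109.9 and 105 CPM in control livers. With vehicle it held 96.9, 122, 114, 88.7 and 101 CPM, and with hAAM 93.4, 78.7, 128 and 112 CPM. Injured livers lay on both sides of the narrow control range. The log2 fold change was -0.09 (95% interval -0.41 to 0.23, FDR 0.676) for vehicle and -0.11 (95% interval -0.44 to 0.22, FDR 0.639) for hAAM. Both turned positive by library size alone, to 0.25 (FDR 0.0757) and 0.17 (FDR 0.25). Between the treatments it was -0.02 (95% interval -0.31 to 0.27). Pink1 lies at chr4:138313409-138326307 on the minus strand (ENSMUSG00000028756).

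Levels of different genes were compared per kilobase of exon, with all annotated exons of a gene merged. In control livers Sqstm1 was the most abundant at 86.2 ± 8.8 CPM per kilobase (SD, n = 3), followed by Gabarapl1 at 60.0 ± 18.7 and Pink1 at 41.6 ± 2.5. Next came Ulk1 at 18.0 ± 6.0, Map1lc3a at 17.3 ± 2.2, Bnip3 at 17.3 ± 1.4 and Map1lc3b at 13.9 ± 1.8, whose ranges overlapped. Wipi1 at 5.18 ± 1.19 and Becn1 at 4.67 ± 0.20 were lowest and also overlapped. Gabarapl1 reached from 41.2 to 78.6 and so met the ranges of both of its neighbours, Sqstm1 (78.5 to 95.8) and Pink1 (39.4 to 44.3). With vehicle the order from the top was Sqstm1 (92.1), Gabarapl1 (42.9), Pink1 (39.1), Map1lc3a (20.7), Bnip3 (19.2), Map1lc3b (10.9), Ulk1 (10.6), Wipi1 (4.6) and Becn1 (4.15), of which Gabarapl1 and Pink1, Map1lc3a and Bnip3, Map1lc3b and Ulk1, and Wipi1 and Becn1 overlapped. With hAAM it was Sqstm1 (76.6), Gabarapl1 (52.9), Pink1 (38.5), Bnip3 (19.6), Map1lc3a (18.5), Map1lc3b (11.1), Ulk1 (10.3), Becn1 (4.26) and Wipi1 (3.92), where the first 3 overlapped in turn, as did Bnip3 and Map1lc3a, Map1lc3b and Ulk1, and Becn1 and Wipi1. Ulk1 ranked above the middle group's other genes in control livers and at its foot in injured livers, although its range met that of Map1lc3b in each group. Merged exons are long for Map1lc3b (7517 bases) and Becn1 (7065 bases), which lowers their value per kilobase.

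**Figure D3:**
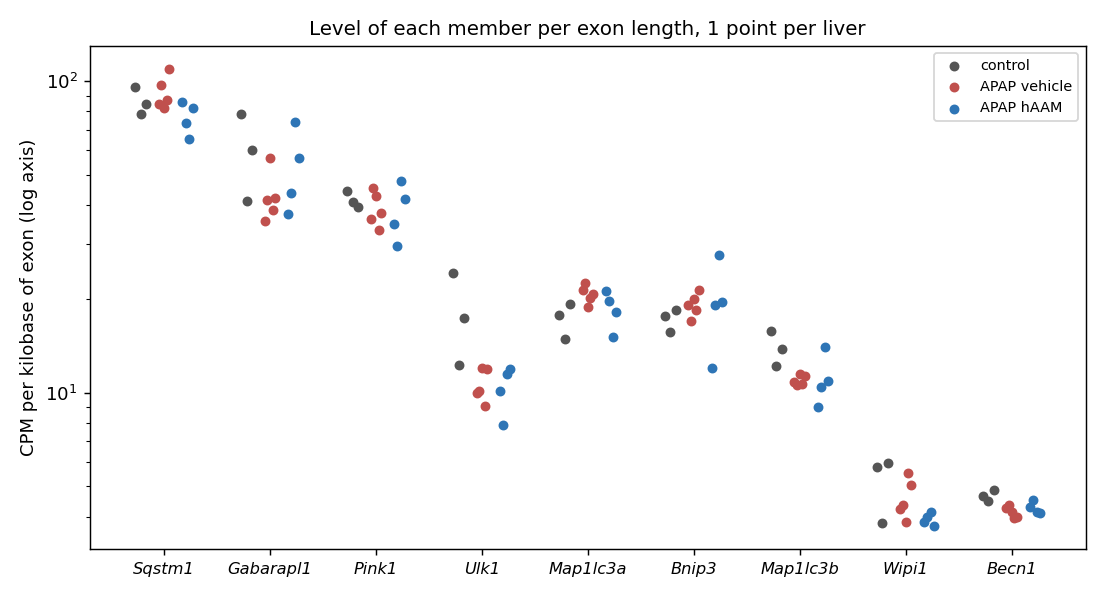
CPM per kilobase of merged exon (vertical log axis) for each member in each of the 12 livers, ordered by the control mean and coloured by group. Sqstm1, Gabarapl1 and Pink1 lie between 29.5 and 110 in the 12 livers, and Wipi1 and Becn1 between 3.73 and 5.96.

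The start-site sequences of the members with a RefSeq entry (7 of 9, without Map1lc3a and Becn1) were searched for the core motifs of factors known to act on autophagy genes. The stretches of Ulk1 and Bnip3 are shown, the first because it is the member called in both comparisons and the second because it is the textbook hypoxia-responsive member whose level did not pass the threshold. Each holds the 150 bases just before the annotated start, read 5′ to 3′ on the minus strand of GRCm38.p6, at chr5:110810098-110810247 for Ulk1 and chr7:138909520-138909669 for Bnip3. Capitals mark the hypoxia-response cores ACGTG and GCGTG on either strand.
Ulk1: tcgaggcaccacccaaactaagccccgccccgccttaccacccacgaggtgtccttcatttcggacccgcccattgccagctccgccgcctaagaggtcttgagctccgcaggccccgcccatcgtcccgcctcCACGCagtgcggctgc
Bnip3: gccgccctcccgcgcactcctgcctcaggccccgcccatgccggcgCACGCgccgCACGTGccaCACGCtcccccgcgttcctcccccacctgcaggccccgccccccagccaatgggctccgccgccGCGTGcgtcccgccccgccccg
The Ulk1 stretch holds 1 GCGTG and the Bnip3 stretch 3, and Bnip3 also holds the palindrome CACGTG, the core of the E-box bound by TFEB, which contains ACGTG on both strands. In the 250 bases before the start, GCGTG was found in 5 of 7 members, Ulk1, Bnip3, Pink1, Map1lc3b and Wipi1, and in 28.2% of 32851 mouse promoters. ACGTG was found in 1 of 7 members and in 16.6% of promoters, and CACGTG in 1 of 7 and 6.02%, in each case Bnip3. The antioxidant-response core TGACNNNGC (10.2% of promoters) and the forkhead core GTAAACA (3.17%) were in 0 of 7 members. A match is a description of these letters in this window, and the data hold no measure of binding there.

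A wider list of 72 autophagy and mitophagy genes, sorted by role, was read beside the 9 members. It was also chosen with earlier results of these data known, so its counts are a description and not an independent test. With TMM scaling 30 of the 72 genes were lower and 2 higher in vehicle-treated livers than in control livers, together 44.4%, while by library size alone 4 were lower and 25 higher. Of all 22581 genes, library size alone called 1110 lower and 8637 higher for vehicle, and 781 and 6559 for hAAM. Counts by library size alone in the lists below are to be read beside these. The median of the 72 was -0.20 with TMM, beside 0.01 for all genes, and 0.15 by library size alone, beside 0.36. Over all genes 14.8% passed as lower and 15.0% as higher. In hAAM-treated livers 26 were lower and 3 higher (40.3%), by library size alone 4 and 17, with a median of -0.14 with TMM, and over all genes 9.96% passed as lower and 10.7% as higher. Of the 72 genes, 25 were lower in both APAP groups and 2 higher in both, against the same control livers. Between hAAM and vehicle 0 of 72 passed by edgeR, with 4 at an unadjusted p under 0.05. The count for vehicle was 20 without control replicate 1 and 21 without control replicate 3. The count for hAAM was 17 without control replicate 1, 14 without control replicate 3, 19 without hAAM replicate 1, 18 without hAAM replicate 2 and 15 in a fit of hAAM and control livers only. The share of all genes passing in these fits is not given here. Fewer calls over all genes therefore cannot be told apart from fewer calls in this list. Without the near-identical pair of libraries 27 were lower and 2 higher for vehicle (40.3%, beside 30% of all genes), and 21 lower and 3 higher for hAAM (33.3%, beside 19.6%). The counts by role below changed by at most 1 gene in each direction without the pair.

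**Figure D4:**
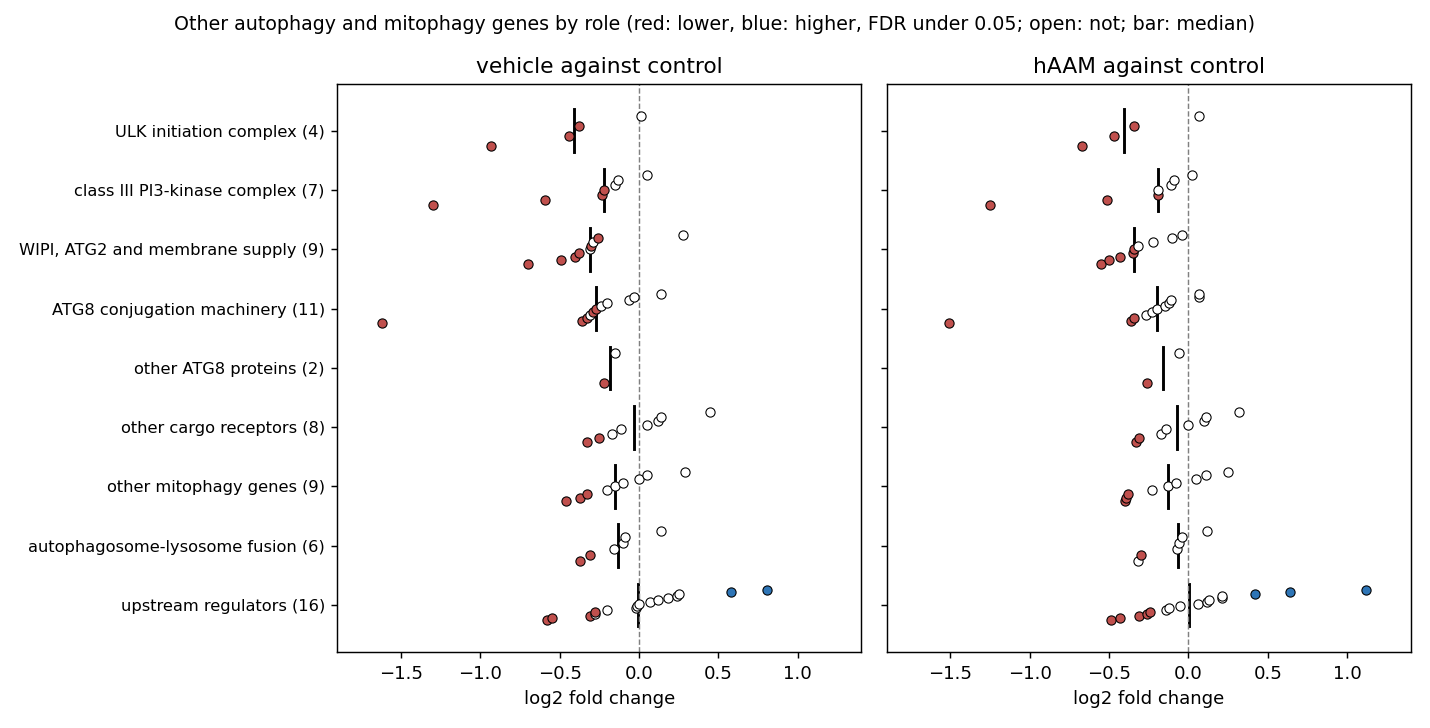
log2 fold change against control (horizontal axes, TMM scaling) of 72 autophagy and mitophagy genes by role, for vehicle-treated and hAAM-treated livers, with 1 point per gene and a bar at each median. Red points were lower (30 for vehicle, 26 for hAAM) and blue points higher (2 and 3) at an FDR under 0.05, a split that turns to 4 lower and 25 higher for vehicle, and 4 lower and 17 higher for hAAM, when scaled by library size alone.

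Of the 4 partners of Ulk1 in the initiation complex, 3 were lower in each APAP group, the median over the 4 genes was -0.41 in each, and by library size alone 1 was lower in each and 1 higher with vehicle. Ulk2, the close relative of Ulk1, measured 106, 89.2 and 104 CPM in control livers. With vehicle it measured 46.5, 51.3, 62.6, 53.9 and 48 CPM, and with hAAM 54.3, 53.3, 77.6 and 66.3 CPM, with no overlap with control. Its log2 fold change was -0.93 (SE 0.13, FDR 0.00067) and -0.67 (SE 0.14, FDR 0.00766), and it was also lower by library size alone (-0.58 and -0.38). Atg101, a small subunit, had 0.01 (FDR 0.97) and 0.07 (FDR 0.797).

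Around Becn1, 4 of 7 genes of the class III phosphatidylinositol 3-kinase complex were lower with vehicle and 3 of 7 with hAAM, while by library size alone 1 was lower and 2 higher in each. Atg14, the subunit that directs the complex to autophagosomes, measured 37.3, 19.5 and 24.3 CPM in control livers. It fell to between 9.58 and 12.2 CPM with vehicle and to between 8.44 and 13 CPM with hAAM, a log2 fold change of -1.30 (SE 0.19, FDR 0.000676) and -1.25 (SE 0.20, FDR 0.00207). It was -0.96 in each by library size alone. Rubcn, an inhibitor of the complex, had 0.05 (FDR 0.639) and 0.02 (FDR 0.858).

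Among the relatives of Wipi1 and the suppliers of membrane, 6 of 9 genes were lower with vehicle and 5 of 9 with hAAM, the medians over the 9 genes were -0.31 and -0.34, and by library size alone 1 was lower in each and 1 higher with vehicle. Wdr45b, a WIPI protein, measured 52.2, 42.5 and 44.7 CPM in control livers, 25.9 to 30.3 CPM with vehicle and 29.4 to 37.6 CPM with hAAM. That was -0.70 (SE 0.09, FDR 0.000416) and -0.50 (SE 0.10, FDR 0.00561), and by library size alone -0.35 (FDR 0.0112) and -0.20 (FDR 0.136). Atg2a, a lipid transfer protein, had 0.28 (FDR 0.228) and -0.10 (FDR 0.727).

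The conjugation machinery that joins ATG8 proteins to lipid held the largest fall of the 72 genes. Atg16l2, a relative of the ATG16L1 scaffold, measured 55.3, 36.7 and 43.2 CPM in control livers. It measured 14.2, 16.3, 15.6, 12.5 and 14.7 CPM with vehicle and 16.3, 13.6, 17.5 and 15.8 CPM with hAAM. Its log2 fold changes were -1.62 (SE 0.13, FDR 2.49e-05) and -1.51 (SE 0.14, FDR 0.000106), and by library size alone -1.28 and -1.22. Atg16l1 itself had -0.03 (FDR 0.826) and -0.12 (FDR 0.408). In all, 5 of 11 conjugation genes were lower with vehicle and 3 of 11 with hAAM, and by library size alone 1 was lower in each, with 3 and 2 higher. Of the other ATG8 proteins, Gabarapl2 was lower in both groups (-0.22, FDR 0.0312, and -0.26, FDR 0.0252), although by library size alone it stood at 0.13 and 0.04, and without the near-identical pair 0 of the 2 other ATG8 genes passed in either group. Gabarap had -0.15 (FDR 0.141) and -0.06 (FDR 0.645).

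Of 8 other cargo receptors 2 were lower in each group, whereas by library size alone 0 were lower and 4 and 2 were higher. Nbr1, a receptor related to p62, fell from 251 ± 18.7 CPM (SD, n = 3) to 199 ± 10.3 (n = 5) and to 200 ± 19.9 (n = 4), by 0.33 on the log2 scale in each (edgeR FDR 0.0177 and 0.0319), and by library size alone it stood at 0.01 and -0.03. Optn, a receptor used in parkin-dependent mitophagy, had 0.05 (FDR 0.823) and 0.00 (FDR 0.994). Of 9 other mitophagy genes 3 were lower in each group, with medians of -0.15 and -0.13 over the 9, whereas by library size alone 0 were lower and 4 and 2 were higher. Fkbp8, an outer-membrane receptor that binds ATG8 proteins, fell from 221 ± 11.3 CPM to 161 ± 14.4 and 169 ± 9.95, a log2 fold change of -0.46 (SE 0.09, FDR 0.00309) and -0.39 (SE 0.09, FDR 0.0139), and by library size alone of -0.11 and -0.09. Pgam5, a mitochondrial phosphatase, had 0.00 (FDR 0.992) and -0.08 (FDR 0.599).

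Genes of fusion with the lysosome gave 2 lower of 6 with vehicle and 1 of 6 with hAAM, and by library size alone 1 and 2 higher and 0 lower. Snap29, a SNARE protein of that step, had -0.37 (SE 0.06, FDR 0.00127) and -0.30 (SE 0.06, FDR 0.00687), and by library size alone -0.02 and 0.00. Stx17, its partner on the autophagosome, had -0.10 (FDR 0.538) and -0.07 (FDR 0.698). The 16 upstream regulators held the rises, with 2 higher and 4 lower for vehicle and 3 higher and 5 lower for hAAM, and by library size alone 9 and 7 were higher and 0 lower. Sesn2, a stress-induced inhibitor of the growth kinase mTORC1, rose from 7.53, 6.51 and 7.94 CPM to between 9.85 and 14.7 CPM with vehicle and between 9.52 and 13 CPM with hAAM. Its log2 fold change was 0.81 (SE 0.14, FDR 0.00177) and 0.64 (SE 0.14, FDR 0.0103), in the same direction by library size alone (1.16 and 0.95). The other regulator higher in both groups was Ddit4, which also restrains mTORC1, with 0.58 (FDR 0.0422) and 1.12 (FDR 0.0046), and the third for hAAM was Foxo1 at 0.42 (FDR 0.02). The 4 regulators lower in both groups were Tfe3, a relative of TFEB, at -0.58 (FDR 0.00317) and -0.49 (FDR 0.0141), the AMPK subunit Prkaa2 at -0.55 (FDR 0.00526) and -0.43 (FDR 0.0283), Tsc2, which like Sesn2 and Ddit4 restrains mTORC1, at -0.31 (FDR 0.00598) and -0.24 (FDR 0.0333), and Keap1 at -0.28 (FDR 0.0144) and -0.31 (FDR 0.0153). Rptor, a subunit of mTORC1, was lower with hAAM at -0.26 (FDR 0.0259). None of these 5 passed as lower by library size alone. These 7 genes were named after their values were seen. Foxo3, a transcription factor of autophagy genes, had 0.00 (FDR 0.988) and 0.12 (FDR 0.624).

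**Figure D5:**
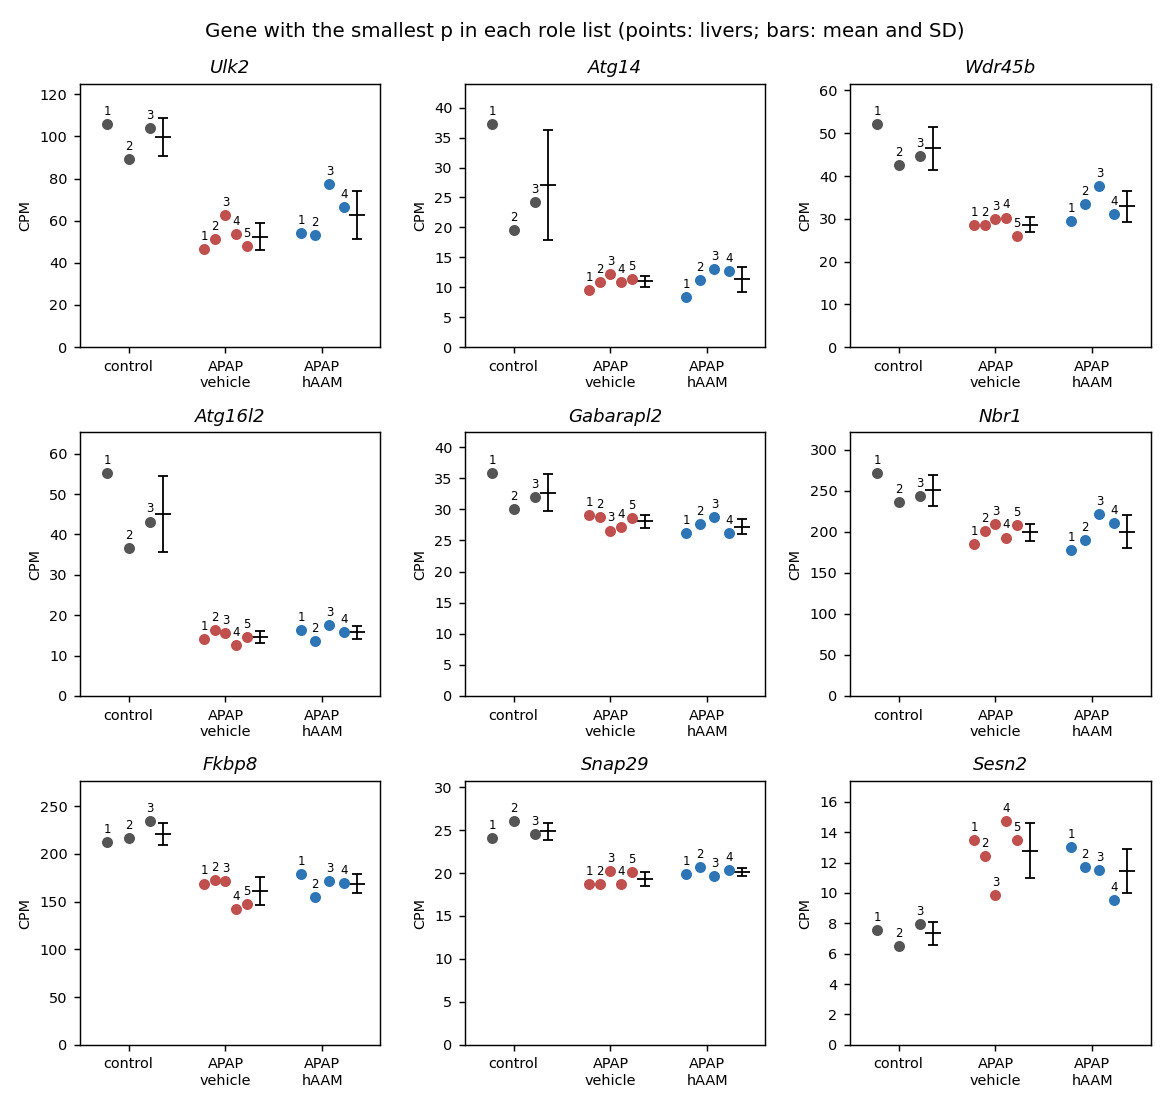
CPM (vertical axes, from 0) in the 12 livers of the gene with the smallest p for vehicle against control in each of 9 role lists, with points numbered by replicate and bars for the mean and SD (n = 3, 5 and 4). Neither APAP group overlaps the control group for any of the 9 genes, chosen for their small p, while the APAP groups overlap each other, and Gabarapl2 and, for vehicle, Nbr1 turn to the opposite sign when scaled by library size alone.

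Programs known to act on the members gave mixed counts. Of 8 NRF2 target genes, a program that includes Sqstm1, 4 were higher and 1 lower in each APAP group, and by library size alone 4 higher and 0 lower, from Slc7a11, the cystine transporter, at 3.19 (FDR 0.00695) and 2.58 (FDR 0.0273), to Txnrd1, a thioredoxin reductase, at -0.35 (FDR 0.0153) and -0.46 (FDR 0.00869), which by library size alone was at 0 and -0.15. Of 10 HIF-1 target genes, a program that includes Bnip3, 1 was higher and 0 lower in each group, by library size alone 3 and 2 were higher, and without the near-identical pair 2 were higher and 1 lower in each. The 1 higher gene was Slc2a1, the glucose transporter, at 1.35 (FDR 0.000724) and 1.11 (FDR 0.00392), and Pdk1 had the lowest value at -0.67 (FDR 0.0705) and -0.56 (FDR 0.167). Of 12 lysosomal genes of the TFEB network, 3 were higher and 3 lower with vehicle, and 5 higher and 1 lower with hAAM, while by library size alone 9 and 8 were higher and 0 lower. Without the pair 4 were higher and 2 lower with vehicle. The lowest vehicle value was that of Lamp2, a lysosomal membrane protein, at -0.45 (FDR 0.0159) and -0.33 (FDR 0.0895).

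Markers of mitochondrial mass gave 0 higher and 2 lower of 8 in each group, and by library size alone 2 higher and 0 lower in each. Hspd1, a matrix chaperone, had -0.58 (FDR 0.00266) and -0.40 (FDR 0.0294), and Tomm20, an import receptor, had 0.16 (FDR 0.156) and 0.10 (FDR 0.45). Transcripts of the mitochondrial genome were lower for 2 of 13 with vehicle (mt-Co2 and mt-Co3) and for 13 of 13 with hAAM, while by library size alone 0 of 13 passed in either group. The medians over the 13 genes were -0.28 and -0.55. Between the treatments 0 of 13 passed, with a median of -0.26 and 4 at an unadjusted p under 0.05. The CPM ranges of hAAM-treated and vehicle-treated livers overlapped for each of the 13 with all libraries. They did not overlap for 10 of 13 without the near-identical pair, beside 8.24% of all genes, and 0 of 13 passed the test. With vehicle the values ran from -0.44 for mt-Co3 (FDR 0.0198) to -0.19 for mt-Nd1 (FDR 0.321), and by library size alone from -0.09 to 0.15 for these genes. With hAAM they were -0.56 (FDR 0.0123) and -0.45 (FDR 0.0479), and by library size alone -0.26 and -0.16. Leaving out the near-identical pair changed none of the NRF2, mitochondrial mass and mitochondrial genome counts against control. Pink1 and Bnip3 did not pass beside these changes.

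Some genes followed the members liver by liver. For the 3 members with the largest vehicle differences, all genes averaging 2 or more log2 CPM were ranked by the root mean square difference of their centred log2 CPM over the 12 livers. Nearest to Ulk1 were Cyp4f17 (0.107), Irak2 (0.122) and Tkfc (0.139). Gabarapl1 was most like Mcc (0.12), Hdac11 (0.143) and Sord (0.146), and Map1lc3b most like Ubr3 (0.0732), Ccni (0.0742) and C87436 (0.0782). These values are on the log2 scale, from 11171 genes compared, and describe likeness over shared libraries.

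Markers of cell types differed between the groups. Pericentral hepatocyte markers were lower for 6 of 6 genes with vehicle and 4 of 6 with hAAM, and summed to 4335 to 6865 CPM in control livers, 382 to 1656 with vehicle and 521 to 3102 with hAAM. Glul, which marks the last rows of cells around the central vein, fell from between 636 and 1168 CPM to between 39.9 and 75.4 CPM in the injured livers. Of 8 general hepatocyte markers 2 were lower with vehicle and 0 with hAAM, by library size alone 0 were lower and 1 higher in each, and their sums overlapped across the 3 groups. Macrophage and Kupffer cell markers were higher for 3 of 8 genes in each group and summed to 300.3 to 374 CPM in control livers, 389 to 636 with vehicle and 385 to 604 with hAAM. Monocyte and neutrophil markers were higher for 2 of 6 genes in each group (sums of 5.16 to 18.6, 15.4 to 53.7 and 15.3 to 47.9 CPM). Stellate cell and fibroblast markers were higher for 3 of 6 in each (193 to 307, 381 to 837 and 373 to 999 CPM), and endothelial markers for 4 of 6 with vehicle and 2 of 6 with hAAM (339 to 377, 401 to 547 and 368 to 538 CPM). Biliary and lymphocyte markers passed for 0 of 5 and 0 of 6 in each group, with sums of 40.3 to 65.5, 64.1 to 301 and 63.8 to 231 CPM and of 5.02 to 8.63, 3.62 to 61.5 and 5.09 to 9.47 CPM. Red cell markers were higher for 4 of 5 and lower for 1 of 5 with vehicle and lower for 1 of 5 with hAAM (135 to 240.1, 220.4 to 2025 and 226 to 733 CPM). No marker of these lists was at 0 counts in any liver. Scaling by library size alone called 6 and 5 macrophage markers higher with vehicle and hAAM, 3 and 3 monocyte and neutrophil, 5 and 4 stellate, 6 and 4 endothelial, 2 and 1 biliary and 4 and 4 red cell markers, and 5 and 4 pericentral markers were lower. Without the near-identical pair of libraries 5 and 3 pericentral markers were lower, 4 and 4 stellate and 1 and 1 biliary markers were higher, and the red cell markers higher with hAAM went from 0 to 4 of 5. With hAAM, 3 monocyte and neutrophil and 3 endothelial markers were then higher, and the other marker counts stayed as given. Ulk1 and Atg14 were lower in the same groups as these shifts, and Becn1 with vehicle, and the part of the shifts in those levels was not tested.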

How the data were processed

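Liver RNA of 12 mice (3 control, 5 vehicle, 4 hAAM, grouped by the sample titles) was analysed. According to the paper's methods and the submitters' processing notes, the authors trimmed reads with cutadapt 4.6, aligned them to GRCm38 with STAR 2.7.1a and used summarizeOverlaps to count reads over genes. The counting mode and use of strand are not given in the sources used here, so genes with overlapping exons may share reads. The authors deposited these as raw counts without scaling, for 24187 Ensembl genes. Symbols and exons came from GENCODE M21 (GRCm38), which named 24128 of them, and start-site sequences from RefSeq (GRCm38.p6).

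Counts were analysed in R 4.3.3 with edgeR 4.0.16 (filterByExpr by group, TMM, 1 quasi-likelihood fit of the 12 livers, two-sided tests, Benjamini-Hochberg adjustment). The SE is the log2 fold change divided by the root of F. The members and gene lists were chosen with earlier results of these data known. Besides the 9 members, the text names in each role list the genes with the smallest and largest p for vehicle against control, in each context list the largest change each way (1 such gene is not reported here), and the 3 nearest genes of 3 members. The fit was tested on simulated data. Total counts of 47391650 to 74056505 per liver left at least 875 counts per member. Alternatives were DESeq2 1.42.0, other scalings and filters, the groups compared only, robust estimation, a replicate block, an FDR threshold of 0.1 and leaving out each liver. Leaving out the near-identical pair was added after seeing the data. DESeq2 gave no adjusted p for 28 genes.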

Additional observations from a re-analysis of the deposited data

Results flagged for a closer look

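Atg2a, a lipid transfer protein of the membrane supply list, measured 65.5 CPM in vehicle replicate 4, while the other 4 vehicle-treated livers lay between 87.2 and 95.5 CPM. It was picked out because this liver stood far from the rest of its group. The check covered 54 groups of livers (27 named genes in 2 APAP groups), and about 1 in 20 such groups is picked by chance. No member had a liver that stood apart by this measure, and no named gene moved in opposite directions in every liver of the 2 APAP groups.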

How the results depend on the processing

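Over the other settings, 517 values of the members kept their direction and their side of the threshold, 21 changed sign, 10 came to pass and 19 ceased to pass. Most values did not pass in the main fit, so their staying there says little about the calls. The 19 all belong to the calls of Ulk1 and Becn1. The count of members lower with vehicle than control (2 by edgeR) was 1 without a filter on low counts, 1 with at least 10 counts in every liver, 1 with the replicate block and 1 without the near-identical pair of libraries, in each case through the loss of Becn1, and it ranged from 0 to 3 when each liver was left out in turn. It was 3 at an FDR threshold of 0.1 (39.1% of all genes passed) and 3 by DESeq2 (34%), with Map1lc3b added in both. In a fit of vehicle and control livers only it was 2, with Map1lc3b (FDR 0.0165) past the threshold and Becn1 (FDR 0.0638) not. By library size alone it was 0, with 3 members higher, where 8637 of 22581 genes were higher. For hAAM against control (1) it was 0 in a fit of these groups only and 3 at an FDR threshold of 0.1 (29.4% of all genes), and it ranged from 0 to 2. Of the 72 other genes, 32 passed for vehicle, with 20 under the replicate block and 20 to 34 with each liver left out. For hAAM 29 passed, with 15 in a fit of the groups compared only, 18 under the replicate block and 14 to 33 with each liver left out. Where no share of all genes stands beside a count of members or of the 72 genes, a change in calls over all genes cannot be told apart from one in the list. The replicate numbers have no stated meaning, and deviations of libraries with the same number correlated between -0.458 and 0.385, with 2 of 12 libraries closest to their own number. By library size alone, which shifts all genes, the vehicle values of Becn1 (0.17), Pink1 (0.25) and Wipi1 (0.18) and the hAAM values of Sqstm1 (0.14), Gabarapl1 (0.10), Becn1 (0.18) and Pink1 (0.17) turned positive, and Map1lc3b (-0.04) and Bnip3 (-0.04) turned negative between hAAM and vehicle. With each liver left out, values near 0 changed sign for Gabarapl1 (-0.39 to 0.07) and Bnip3 (-0.03 to 0.36) in hAAM against control. Between hAAM and vehicle they did so for Map1lc3b (-0.12 to 0.10), Ulk1 (-0.11 to 0.07), Bnip3 (-0.18 to 0.21) and Pink1 (-0.14 to 0.09). With 3 control livers, 1 of them can decide a call. Apart from these, the cause was not tested. Counting alone gives a coefficient of variation of 0.729% to 3.3% for the members by group. For Wipi1 with hAAM it is 3.3% beside an observed 4.4%, and for Becn1 with vehicle 2.38% beside 4.09%. Its share in the spread was not tested.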
